A study of Mus musculus with 7 samples.

Results

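T cell receptor variable (V), diversity (D) and joining (J) segments were described in RNA-seq libraries of mouse intestinal epithelium. The members were all rows of the deposited gene table whose symbol is that of a V, D or J segment of the alpha, beta, gamma or delta chain, 262 of 46671 genes. They comprised 130 V and 60 J segments of the alpha chain, 35 V, 2 D and 14 J segments of the beta chain, 7 V and 4 J segments of the gamma chain, and 6 V, 2 D and 2 J segments of the delta chain. The rule for choosing them uses names only, but it was set with earlier results of these data known. The 3 control libraries (Ctrl) are labelled WT. The 4 knockout libraries (cKO) come from mice in which MST3, also called STK24, had been knocked out in the epithelial cells of the intestine. Both groups are BALB/C mice at an age of 8 weeks. The sample labels say that neither group received a drug, whereas the design text names treatment with AOM and DSS, a carcinogen and a colitis-inducing agent. The driver of the knockout is not given in the sources used here. No label says that each library is a separate mouse, so p-values measure only the spread between these libraries, which may be technical.

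A T cell receptor is a pair of chains, alpha with beta or gamma with delta. In the thymus each T cell joins a V segment to a J segment, with a D segment between them in the beta and delta chains, and the joined stretch is spliced to a constant region. A cell therefore transcribes mainly the V segments it has joined, and the V segments read in a tissue report which receptors its T cells carry. Whether a read on a J segment comes from a joined segment cannot be told from values per gene, so J reads report this less surely. The gut epithelium of mice holds intraepithelial lymphocytes, many of them gamma-delta T cells, and those with the V segment Trgv7 are the characteristic gamma-delta cells of the small intestinal epithelium. Their presence there depends on the epithelial butyrophilin-like proteins Btnl1 and Btnl6. Epithelial cells do not rearrange these segments, so in bulk epithelium they are a readout of lymphocytes lying among the epithelial cells.

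The gamma chain carried most of the reads, and its segments are shown first because the results turn on its V segments. These are the last 60 bases of the 4 most read gamma V segments, from the GENCODE M21 annotation of GRCm38, on the coding strand. Capitals mark the codon of the cysteine after which the joined, variable stretch begins.
Trgv7: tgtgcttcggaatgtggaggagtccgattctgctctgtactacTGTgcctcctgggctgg
Trgv2: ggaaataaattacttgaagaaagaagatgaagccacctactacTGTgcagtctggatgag
Trgv1: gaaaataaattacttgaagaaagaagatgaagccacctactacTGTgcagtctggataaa
Trgv4: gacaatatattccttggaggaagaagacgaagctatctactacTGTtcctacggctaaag
Over their whole length Trgv1 and Trgv2 were 94.65% identical, whereas Trgv7 was at most 52.8% identical to any other gamma V segment. Trgv3 was 94.9% identical to Trgv1 and 93.8% to Trgv2. The division of reads among Trgv1, Trgv2 and Trgv3 is therefore uncertain, and reads of Trgv7 are told apart far more easily.

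J segments are short, and most hold a conserved stretch that codes for phenylalanine, glycine or alanine, any residue and glycine. The most read J segments of the gamma and delta chains and the beta J segment with the smallest unadjusted p are given below, with that stretch in capitals.
Trgj4: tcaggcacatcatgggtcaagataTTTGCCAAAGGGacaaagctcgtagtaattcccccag
Trgj1: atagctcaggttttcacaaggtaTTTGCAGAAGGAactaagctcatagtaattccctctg
Trdj2: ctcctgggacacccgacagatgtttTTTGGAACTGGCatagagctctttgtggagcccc
Trbj2-7: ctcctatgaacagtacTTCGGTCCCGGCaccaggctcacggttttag
Both of its forms, TTNGGNNNNGGN and TTTGCNNNNGGN, were searched on the coding strand only. They cannot match at the same position. TTNGGNNNNGGN was present in 59 of 80 J segments (73.75%) and TTTGCNNNNGGN in 6 (7.5%), among them all 4 gamma J segments. Trgj1 and Trgj2 were 93.3% identical. All 262 segments had a sequence in the annotation.

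The libraries held between 14659708 and 19659622 reads in genes, and the segments together only 2889. Summed segment reads were 784, 360 and 420 in Ctrl libraries 1 to 3 and 270, 268, 395 and 392 in cKO libraries 1 to 4. A V segment of 350 bases with 3 reads, the limit that a count of 0 allows, stood at between 0.442 and 0.616 FPKM (fragments per kilobase of gene, scaled to library size), depending on the library. Stk24, the targeted gene, stood at 19.4 FPKM or more in each Ctrl library and at 2.92, 3.04, 3.85 and 3.53 FPKM in cKO (limma log2 difference -2.42, adjusted p = 0.00043). The tissue is labelled colorectum, but the small intestinal genes Apoa4 (4553 to 10415 FPKM) and Lct (280 to 523 FPKM) were high. Of the colon genes, Car1 and Hoxb13 were at or near 0 and Aqp8 did not exceed 1.56 FPKM. The RAG recombinase genes Rag1 and Rag2 had 0 reads in every library, and Dntt and Ptcra, also of the thymic stage, had 7 and 2 reads in all.

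Of the 262 segments, 130 had at least 1 read and 132 had none. Reads were found on 10 of the 11 gamma segments, 6 of the 10 delta segments, 36 of the 51 beta segments and 78 of the 190 alpha segments. The gamma segments held 1700 reads, the beta segments 608, the alpha segments 351 and the delta segments 230. Only 15 segments were read in all 7 libraries, and these held 2084 reads, whereas 50 were read in exactly 1 library and held 92. The repertoire was concentrated. Trgv7 alone took 21.6% of all segment reads, Trgv7 with Trgv2 40.0%, and the 10 most read segments 68.1%. Of the 40 segments that the table classes as pseudogenes, 5 were read, with 13 reads in all, against 125 of the other 222.

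For the alpha chain part of the unread segments are near-copies. Of 130 alpha V segments, 109 had another alpha V segment at least 95% identical to them, and none of the beta, gamma or delta V segments had such a copy in its chain. Among the 44 alpha V segments with an identical twin only 3 were read, with 6 reads, against 44 of the 86 others. Counts of single alpha V segments are therefore uncertain, and how the authors' counting treated reads that fit several genes is not given in the sources used here. Whether BALB/C mice carry the same segments and copies as the reference genome was not checked.

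Levels of whole chains overlapped between the genotypes. Summed gamma segments stood at RPM values (reads scaled to library size, on the deposited scale) of 24.7, 12.6 and 15.4 in Ctrl and 7.94, 8.24, 17.8 and 15.8 in cKO. The means were 17.6 ± 6.34 (SD, n = 3) and 12.5 ± 5.11 (SD, n = 4). Ctrl 1 was the highest library and cKO 1 and cKO 2 were the lowest, while cKO 3 and cKO 4 lay above Ctrl 2 and Ctrl 3. Without Ctrl 1 the difference of the means shrank from -5.12 to -1.55 RPM. Summed delta segments gave 3.45, 1.91 and 1.73 RPM in Ctrl and 1.52, 0.949, 2.34 and 1.87 in cKO. For the beta chain the values were 8.24, 3.99 and 6.43 in Ctrl and 3.21, 3.38, 4.48 and 7.04 in cKO. Alpha segments stood at 3.97, 2.92 and 2.41 in Ctrl and at 2.53, 3.32, 2.55 and 3.45 in cKO. Each of the 4 chains had its highest value in Ctrl 1, as the plot of segment reads by chain shows.

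**Figure D1:**
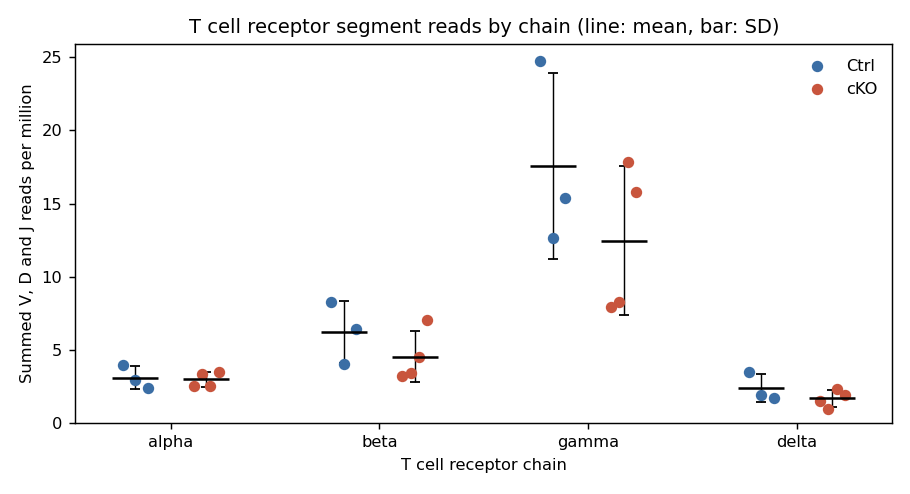
Summed RPM on V, D and J segments (vertical axis) of the 4 T cell receptor chains (horizontal axis), with 1 point per library, Ctrl in blue and cKO in red, the group mean as a line and the SD as a bar. The gamma chain is the highest in both groups, and Ctrl and cKO libraries overlap in all 4 chains.

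General T cell genes, when summed, were highest in Ctrl 1 and lowest in cKO 1, as were the gamma and beta sums. The alpha and delta sums were lowest in Ctrl 3 and cKO 2. The summed level of 14 markers of T cells and intraepithelial lymphocytes ranged from 708 to 1797 FPKM in Ctrl and from 469 to 1154 FPKM in cKO. Gzma and Ccl5 made up much of it, at 696 and 571 FPKM in Ctrl 1. In this sum cKO 3, at 824 FPKM, lay below Ctrl 3, at 883 FPKM, unlike in the gamma sum. The 11 genes of the receptor complex and its coreceptors summed to 68.9 to 146 FPKM in Ctrl and 38.0 to 106 FPKM in cKO. In bulk tissue fewer T cells and less receptor RNA per T cell cannot be told apart. Summed B and plasma cell markers ranged from 11.5 to 28.3 FPKM over Ctrl and from 18.6 to 53.2 FPKM over cKO libraries, and the part of other lymphocytes in the segment values was not tested.

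Gamma and delta segments together made up 69.8%, 67.8% and 66.0% of segment reads in Ctrl and 62.2%, 57.8%, 74.2% and 62.8% in cKO. The mean gamma-delta share was 67.8 ± 1.91% (SD, n = 3) in Ctrl and 64.2 ± 6.98% (SD, n = 4) in cKO, and the libraries overlapped. The exact (Clopper-Pearson) 95% interval of a single library, which covers counting error only, ran from 66.4% to 73.0% in Ctrl 1 and from 51.7% to 63.8% in cKO 2. In constant region reads the gamma-delta share had the opposite order of means, with a difference of 2.97 percentage points against -3.59 in segments. Without the most read segment, Trgv7, the difference in segments was 1.67 percentage points. The direction of this share thus depended on the readout and on Trgv7.

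The number of different segments read was compared at an equal 268 segment reads. The expected number was 54.6, 56.9 and 31.5 in Ctrl and 47.9, 56.0, 45.4 and 54.1 in cKO. Ctrl 3 stood apart, with the fewest segments of the 7 libraries. Only 5 alpha V segments were read in Ctrl 3, against 10 to 23 in the others, and 22 of its 35 alpha V reads lay on the single segment Trav13-4-dv7. Without Ctrl 3 the difference turned from 3.17 to -4.94 segments.

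Across all genes 13057 could be tested in limma, and 4 of them (0.0306%) passed an adjusted p of 0.05. No segment was among them. A mean of at least 0.5 FPKM was needed for testing, which 45 segments reached, 21 V, 23 J and 1 D. Of these, 13 had fewer than 10 reads over the 7 libraries, since a short J segment reaches that level on very few reads. The smallest adjusted p of a segment was 0.511. At an unadjusted p under 0.05 there were 6 of 45 segments (13.3%), against 8.97% of all genes tested: 5 lower in cKO, where the background was 4.73%, and 1 higher, where it was 4.24%. The segments' median log2 difference was -0.30, against -0.0077 over all genes tested. Lower in cKO were 16 of 25 tested beta segments, 4 of 7 gamma, 4 of 5 delta and 3 of 8 alpha segments. Libraries did not overlap for 1 of the 45 (2.22%), lower in cKO, against 4.51% of all genes tested. Non-overlap with higher values in cKO was found for 0 of the 45, against 5.62%.

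Trgv7 was the most read segment. It lies on the plus strand of chromosome 13 from 19362212 to 19362662 (GRCm39, as in the deposited table), upstream of Trgv4 and of Trgj1, the J segment of the same gene cluster. It was read 212, 86 and 117 times in Ctrl and 41, 30, 87 and 51 times in cKO. These counts correspond to 31.2, 14.6 and 20.7 FPKM in Ctrl and 6.59, 5.08, 17.1 and 10.5 FPKM in cKO. The groups overlapped at 1 place, cKO 3, which lay above Ctrl 2. Mean levels were 22.2 ± 8.39 FPKM (SD, n = 3) and 9.82 ± 5.37 FPKM (SD, n = 4), which put the log2 difference at -1.21 (SE 0.41, limma unadjusted p = 0.017, adjusted p = 0.516).

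The log2 differences of the other frequent gamma V segments were smaller in size than that of Trgv7, and the contrast between segments was not tested on this scale. Trgv2, on the minus strand at 19520743 to 19521196, was read 124, 62 and 80 times in Ctrl and 46, 55, 75 and 91 times in cKO. Its FPKM averaged 14.3 ± 3.86 (SD, n = 3) and 12.5 ± 5.15 (SD, n = 4), and the log2 difference was -0.24 (limma adjusted p = 0.857). Trgv1, at 19524186 to 19524624, was read 72, 31 and 17 times in Ctrl and 31, 28, 47 and 41 times in cKO. Its log2 difference was 0.22 (limma adjusted p = 0.899) and turned to -0.18 without Ctrl 3, the library in which it was least read. Trgv4, at 19369151 to 19369676, is the V segment of many circulating and lymphoid gamma-delta cells. It was read 41, 18 and 21 times in Ctrl and 14, 17, 15 and 15 times in cKO, with a log2 difference of -0.48 (limma adjusted p = 0.555). In all 4 segments the libraries overlapped in level, in Trgv4 only because cKO 4, at 2.57 FPKM, lay just above Ctrl 2, at 2.56 FPKM. Trgv5, known from skin, and Trgv6, known from mucosal and other barrier tissues, had 4 reads each over all libraries, and Trgv3 had 9. They are named outside the rule for naming segments, after their values were seen.

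Within the gamma V segments, the share of Trgv7 did not overlap between the groups. Trgv7 made up 46.4%, 43.7% and 49.4% of gamma V reads in Ctrl and 30.1%, 23.1%, 38.8% and 25.4% in cKO. Every Ctrl library lay above every cKO library. The means were 46.5 ± 2.86% (SD, n = 3) and 29.4 ± 6.97% (SD, n = 4), a difference of -17.1 percentage points. An exact permutation test, 2-sided, returned p = 0.0571, which is the lowest p this design of 3 and 4 libraries can reach, and 0.243 after Benjamini-Hochberg adjustment over 17 single values. This share was looked at after the levels had been seen, and the design could not bring any such value below 0.05. Counting error alone is not negligible: the exact 95% interval ran from 36.6% to 50.9% in Ctrl 2 and from 32.4% to 45.6% in cKO 3, the closest libraries.

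Trgv1 had the higher share in cKO. Trgv1 made up 15.8%, 15.7% and 7.17% of gamma V reads in Ctrl and 22.8%, 21.5%, 20.98% and 20.4% in cKO, again without overlap (exact 2-sided permutation p = 0.0571, adjusted 0.243). Trgv2 made up 27.1%, 31.5% and 33.8% in Ctrl and 33.8%, 42.3%, 33.5% and 45.3% in cKO, with overlap (exact p = 0.114, adjusted 0.389). Trgv4 stood at 8.97%, 9.14% and 8.86% in Ctrl and at 10.3%, 13.1%, 6.70% and 7.46% in cKO (exact p = 0.971). Shares of 1 total are bound to one another, so the higher share of Trgv1 is not independent of the lower share of Trgv7. Its level in FPKM overlapped between the groups.

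**Figure D2:**
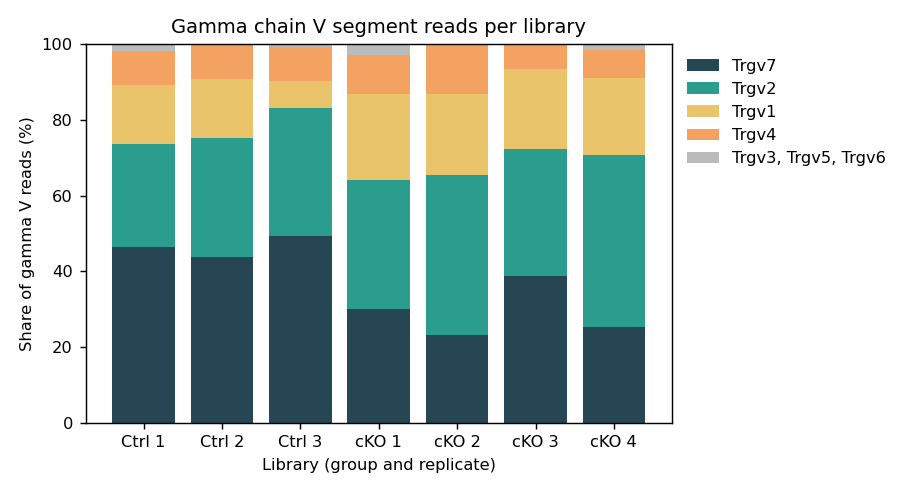
Share of gamma chain V reads in percent (vertical axis) held by each V segment in the 7 libraries (horizontal axis), as stacked bars that sum to 100%. The Trgv7 part at the bottom lies between 43.7% and 49.4% in the 3 Ctrl libraries and between 23.1% and 38.8% in the 4 cKO libraries.

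The same contrast was present against constant regions, which are separate genes with many more reads. Trgc1, the constant region of the cluster that holds Trgv7, was read 505, 279 and 234 times in Ctrl and 161, 162, 396 and 313 times in cKO. For every 100 Trgc1 reads there were 42.0, 30.8 and 50.0 Trgv7 reads in Ctrl and 25.5, 18.5, 22.0 and 16.3 in cKO, again without overlap. The means were 40.9 ± 9.63 (SD, n = 3) and 20.6 ± 4.02 (SD, n = 4), with an exact 2-sided permutation p of 0.0571 (adjusted 0.243). Per 100 reads of the delta constant region Trdc, Trgv7 stood at 34.0, 25.0 and 38.6 in Ctrl and at 23.2, 13.1, 16.2 and 13.7 in cKO. Per 100 Trgv2 reads it stood at 171, 139 and 146 in Ctrl and at 89.1, 54.5, 116 and 56.0 in cKO. The first 300 bases of Trgc1 are 97.33% identical to Trgc2 and 95.67% to Trgc3, so the division of reads among these constant regions is uncertain too. Per 100 reads of all gamma constant regions together, which does not need that division, Trgv7 stood at 16.0, 12.5 and 20.5 in Ctrl and at 9.93, 6.02, 8.77 and 6.35 in cKO, without overlap. These ratios share the Trgv7 reads and so are not independent of one another. Corresponding ratios of other pairs overlapped: Trgv2 per 100 Trgc2 reads was 26.5 ± 5.93 in Ctrl (SD, n = 3) and 24.7 ± 2.34 in cKO (SD, n = 4). Trgv1 per 100 Trgc4 reads was 21.8 ± 4.29 and 30.9 ± 14.0, and Trgv4 per 100 Trgc1 reads was 7.85 ± 1.28 and 6.94 ± 3.18.

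The epithelial genes on which Trgv7 cells depend were read in the same libraries. Btnl1 stood at 141, 155 and 141 FPKM in Ctrl and at 115, 111, 132 and 154 FPKM in cKO (limma log2 difference -0.19, adjusted p = 0.713). Btnl6 stood at 125, 156 and 186 FPKM in Ctrl and at 138, 103, 99.5 and 147 FPKM in cKO (log2 difference -0.35, limma adjusted p = 0.636). Both overlapped between the groups. H2-T3, which encodes the thymus leukaemia antigen that binds the CD8 alpha homodimer of intraepithelial lymphocytes, stood at 109, 117 and 104 FPKM in Ctrl and at 68.4, 57.7, 82.9 and 86.4 FPKM in cKO. It did not overlap, but it did not pass the test over all genes (log2 difference -0.59, SE 0.16, limma adjusted p = 0.493). Of the 12 genes listed for butyrophilin-like selection and support of intraepithelial lymphocytes, 10 were tested, 8 were lower and 2 higher in cKO, and none passed. Their part in the Trgv7 share was not tested.

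Gamma J segments were sparse. Trgj4, at chromosome 13 from 19526322 to 19526382 beside Trgv1, was the most read, with 12, 13 and 12 reads in Ctrl and 1, 3, 21 and 13 in cKO. The 3 Ctrl libraries were alike and the cKO libraries lay on both sides of them (log2 difference -0.88, SE 0.90, limma adjusted p = 0.790). Trgj1, the partner of Trgv7 and Trgv4, was read 6, 1 and 0 times in Ctrl and 4, 3, 8 and 1 times in cKO (log2 difference 1.29, SE 0.83, limma adjusted p = 0.672). On 23 reads in all, the Trgj1 difference thus had the opposite sign to that of Trgv7, and it lay between 0.44 and 2.19 when single libraries were left out. Trgj2 had 20 reads in all, and Trgj3 had 0.

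Among delta segments Trdv5 was read most, with 30, 19 and 20 reads in Ctrl and 16, 9, 17 and 15 in cKO. It lies on the minus strand of chromosome 14 from 54386119 to 54386658, downstream of the J segments of its chain. Its level averaged 3.78 ± 0.624 FPKM over Ctrl (SD, n = 3) against 2.67 ± 0.815 FPKM over cKO (SD, n = 4), and the log2 difference was -0.47 (SE 0.23, limma adjusted p = 0.594). Trdv4 was read 11, 1 and 4 times in Ctrl and 10, 1, 2 and 1 times in cKO. High libraries of Trdv4 occurred in both groups. Trdv2-2 and Trdv1 had 21 and 18 reads in all, 8 and 10 of them in Ctrl 1. Trdj2 carried 30 of the 35 delta J reads, with 8, 7 and 4 reads in Ctrl and 0, 0, 9 and 2 in cKO. Its log2 difference of -1.93 had an SE of 1.03 (limma adjusted p = 0.617), and cKO 3 was the highest library of all. Trdj1 had 0, 1 and 0 reads in Ctrl and 0, 1, 0 and 3 in cKO.

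Some V segments on the alpha side of the joint alpha and delta locus also serve the delta chain, which their dv names mark. There were 10 such members, of which 7 were read, with 134 reads, and 3 of them were the most read alpha V segments. Trav13-4-dv7, at chromosome 14 from 53994867 to 53995378, was read 14, 4 and 22 times in Ctrl and 15, 7, 5 and 3 times in cKO. Its highest library was Ctrl 3 and the groups overlapped (log2 difference -0.49, SE 0.48, limma adjusted p = 0.777). Trav15-2-dv6-2 was read 4, 6 and 0 times in Ctrl and 4, 5, 5 and 1 times in cKO. Trav15-1-dv6-1 was read 5, 1 and 4 times in Ctrl and 2, 1, 5 and 5 times in cKO. The limma log2 differences of these dv6 segments were 0.26 and 0.08, and both turned negative when single libraries were left out, Ctrl 3 for the first and Ctrl 2, cKO 3 or cKO 4 for the second. Reads on these segments cannot be assigned to alpha or delta chains from the table.

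Of the other alpha segments, Trav14-2 had 2, 0 and 0 reads in Ctrl and 0, 9, 4 and 0 in cKO. The alpha J segments shared 66 reads among 31 of 60 members, none with more than 7. Traj58, with 7 reads in all, and Traj3, with 5, stood at adjusted p of 0.919 and 0.808 in limma. Some segments were read in a single library only: Trav12-2 had 7 reads, all in cKO 2, and Trbj1-7 had 7, all in Ctrl 3. These and the low Trgj2, Trgj3, Trbj2-4, Trbv2 and Trav5-1 are named after their values were seen.

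Beta V segments were spread more evenly than gamma V segments. Trbv16, the most read, had 11, 2 and 9 reads in Ctrl and 5, 5, 7 and 13 in cKO, between 6.90% and 16.5% of beta V reads in each library. Its log2 difference was 0.22 (SE 0.43, limma adjusted p = 0.908), and it turned to -0.23 without Ctrl 2 and to -0.058 without cKO 4. Trbv3 had 6, 7 and 5 reads in Ctrl and 6, 4, 3 and 8 in cKO, with a log2 difference of -0.06 (limma adjusted p = 0.960) that was positive without Ctrl 2, cKO 2 or cKO 3. Neither segment separated the groups.

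Trbv13-2 was the single tested segment whose libraries did not overlap. It lies at chromosome 6 from 41098330 to 41098766 and was read 11, 4 and 16 times in Ctrl and 2, 3, 0 and 3 times in cKO. Its level averaged 1.76 ± 1.11 FPKM over Ctrl (SD, n = 3) against 0.372 ± 0.278 FPKM over cKO (SD, n = 4), and the log2 difference was -1.31 (SE 0.41, limma unadjusted p = 0.013, adjusted p = 0.511). It is 90.6% identical to Trbv13-3 and 87.9% to Trbv13-1. Trbv13-1 was read 5, 1 and 15 times in Ctrl and 1, 5, 3 and 3 times in cKO, and overlapped. Its log2 difference of -0.44 turned to 0.17 without Ctrl 3, the library with 15 of its 33 reads. Trbv14, too low to be tested, went the other way, with 1, 0 and 0 reads in Ctrl and 3, 4, 4 and 3 in cKO. Of all 130 read segments, libraries did not overlap for 3 with lower and 1 with higher values in cKO. The other 2 of these, Trbv2 and Trav5-1, rested on 9 and 7 reads. Over all 13057 genes tested the shares without overlap were 4.51% lower and 5.62% higher in cKO. No such share was computed for genes too low to be tested.

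All 14 beta J segments were read, with fewer reads in cKO when summed. Whether these reads come from joined J segments cannot be told from values per gene. The summed beta J reads were 38, 36 and 30 in Ctrl and 11, 7, 17 and 15 in cKO. On the deposited scale these were 1.96, 2.14 and 1.85 RPM in Ctrl and 0.619, 0.415, 1.17 and 1.08 in cKO, with means of 1.99 ± 0.147 (SD, n = 3) and 0.821 ± 0.362 (SD, n = 4). The groups did not overlap, and the sum in cKO was 0.413 times that in Ctrl. The sum was picked out after the values were seen. Its exact 2-sided permutation p was 0.0571, the lowest this design can reach, and 0.243 after adjustment over the 17 single values. The Trbj2 segments did not overlap, with 15, 11 and 17 reads in Ctrl and 2, 1, 6 and 3 in cKO, or RPM of 0.655 to 1.05 against 0.0593 to 0.413. The Trbj1 segments had 23, 25 and 13 reads in Ctrl and 9, 6, 11 and 12 in cKO, but overlapped in level, with cKO 4 at 0.862 RPM above Ctrl 3 at 0.803 RPM. Beta V reads did not separate in this way, at 120, 29 and 70 in Ctrl and 46, 50, 47 and 79 in cKO. For every 100 beta V reads there were 31.7, 124 and 42.9 beta J reads in Ctrl and 23.9, 14.0, 36.2 and 19.0 in cKO, with overlap. Beta constant region reads were 716, 346 and 275 in Ctrl and 172, 172, 291 and 342 in cKO. Relative to these, beta J reads overlapped too, with Ctrl 1 below cKO 1 and cKO 3.

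Single beta J segments rested on few reads. Trbj2-7, at chromosome 6 from 41520744 to 41520790, was read 4, 4 and 10 times in Ctrl and 1, 1, 3 and 1 times in cKO. In FPKM cKO 3 lay just above Ctrl 1, at 4.395 against 4.385, so the groups overlapped in level although not in reads. Its log2 difference of -1.62 (SE 0.47) had the smallest p of any segment (limma unadjusted p = 0.0082, adjusted p = 0.511). Trbj1-6 was read 6, 5 and 0 times in Ctrl and 2, 1, 3 and 8 times in cKO, and its log2 difference of 0.51 turned to -0.71 without Ctrl 3 and to -0.017 without cKO 4. Trbj1-6 thus went against the direction of the sum, except with a replicate block or without Ctrl 3 or cKO 4. Trbj2-4 had 7 of its 9 reads in Ctrl 3, the same library that held all reads of Trbj1-7.

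**Figure D3:**
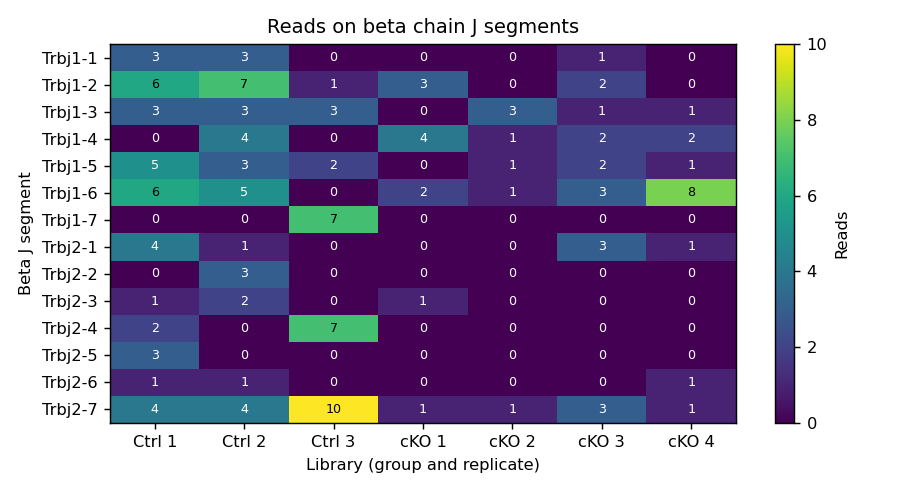
Reads on each of the 14 beta chain J segments (vertical axis) in the 7 libraries (horizontal axis), with the number of reads printed in each cell and shown by colour from 0 to 10. The Trbj2 rows are nearly empty in cKO apart from Trbj2-7 and Trbj2-1, while Trbj1-7 and Trbj2-4 are high in Ctrl 3.

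D segments are a few bases long. Trbd1 is 12 bases, and it is shown because a read must lie almost wholly outside it.
Trbd1: gggacagggggc
It had 13 reads, 2, 2 and 4 in Ctrl and 0, 0, 1 and 4 in cKO. Trbd2, Trdd1 and Trdd2 had 0 reads, which on so few bases says little about their use.

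Per length, V, J and constant regions of a chain stood in different proportions. In Ctrl summed V levels were 46.9 ± 17.4 FPKM for gamma, 11.9 ± 6.50 for beta, 7.36 ± 1.86 for alpha and 5.76 ± 2.67 for delta (SD, n = 3). In cKO they were 31.9 ± 11.98, 10.5 ± 4.13, 6.91 ± 1.37 and 4.09 ± 1.04 FPKM (SD, n = 4). Gamma V exceeded every other chain's V in all 7 libraries. With dv segments counted as alpha, alpha V exceeded delta V within each of the 7 libraries, although the ranges overlapped across Ctrl libraries. With them counted as delta, alpha V had 37, 20 and 8 reads in Ctrl and 18, 32, 10 and 26 in cKO. Delta V then had 85, 39 and 51 reads in Ctrl and 48, 29, 42 and 35 in cKO. This was more than alpha V except in cKO 2. The order of these 2 chains thus depended on the dv segments, which cannot be assigned to a chain here. Summed V levels were 69.4% of the constant region level in alpha, 25.7% in beta, 51.1% in gamma and 26.0% in delta in Ctrl. The corresponding means in cKO were 70.5%, 35.7%, 39.1% and 25.7%, and the libraries of the groups overlapped in every chain. Beta J was the summed level that did not overlap, with an average of 40.6 ± 2.37 FPKM over Ctrl (SD, n = 3) against 16.3 ± 7.17 FPKM over cKO (SD, n = 4).

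**Figure D4:**
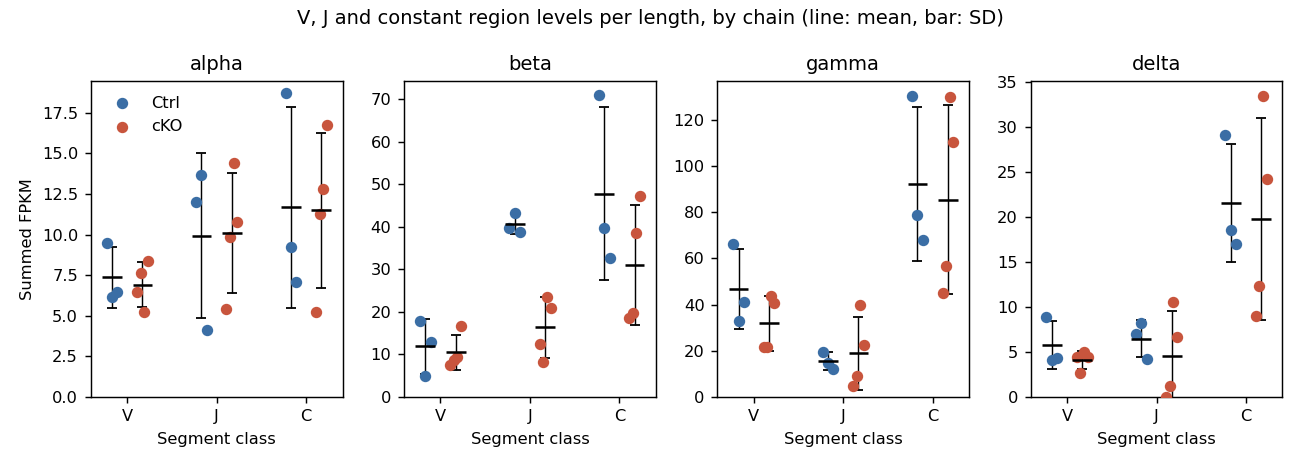
Summed FPKM (vertical axes, each from 0 with its own scale) of V segments, J segments and constant regions (C) in the alpha, beta, gamma and delta chains, with 1 point per library, Ctrl in blue and cKO in red, the mean as a line and the SD as a bar. Only beta J has no overlap between Ctrl (38.8 to 43.3 FPKM) and cKO (8.29 to 23.6 FPKM).

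The constant regions, which the name rule left out, gave the same chains with more reads and showed no separation. Trdc stood at 29.0, 18.5 and 16.9 FPKM in Ctrl and at 9.01, 12.3, 33.4 and 24.2 FPKM in cKO (limma log2 difference -0.26, adjusted p = 0.888). Trgc1, Trgc2 and Trgc4 had log2 differences of -0.27, -0.16 and -0.16, with limma adjusted p of 0.878, 0.911 and 0.947. Trbc1 had the largest difference of the 7 tested constant regions, -0.92 (SE 0.46, limma adjusted p = 0.595), at 27.2, 18.0 and 11.5 FPKM in Ctrl and 5.86, 4.91, 15.9 and 15.1 FPKM in cKO. Trbc2 stood at -0.49 (adjusted p = 0.713) and Trac at -0.01 (adjusted p = 0.996) in limma. All 7 tested constant regions were lower in cKO and none passed, with a median log2 difference of -0.26. Trgc3, with 28 reads in all, was not tested.

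None of the other receptor genes listed passed the test either. Of 11 genes of the receptor complex and its coreceptors 8 were tested, 7 were lower and 1 higher in cKO, and none passed (median log2 difference -0.42). Cd3g, a signalling subunit of the complex, stood at 42.6, 27.4 and 27.4 FPKM in Ctrl and at 11.99, 16.99, 30.9 and 34.8 FPKM in cKO, with overlap (log2 difference -0.54, limma adjusted p = 0.689). Of 22 proximal signalling genes 19 were tested, with 16 lower, 3 higher and none past the threshold (median -0.18). Of 13 genes of V(D)J recombination and the thymic stage 9 were tested, with 3 lower, 6 higher and none past the threshold (median 0.033). Over all genes tested 51.3% were lower in cKO.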

How the data were processed

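The members and gene lists were chosen with earlier results of these data known. The authors deposited 1 table of FPKM per gene and library; the reads were aligned with HISAT2, per the submitters' processing notes, while how reads were counted, with what strand setting and annotation, is not given in the sources used here. Multiplied by length, 100% of values were whole numbers of a fixed unit in their library, within 0.01, which gave the reads behind each value and, on the deposited scale, RPM. Libraries differed by more than sampling noise (lowest chi-square over its degrees of freedom 19.5), so none was counted as a repeat. That lowest value was between cKO 1 and cKO 2, and cKO 3 with cKO 4 gave 26.8. The remaining cKO pairs gave 50.9 to 73.5. The tests treat the 4 cKO libraries as separate, and whether those close to each other are independent is not known. limma 3.58.1 (R 4.3.3) was run on log2(FPKM + 0.5), which understates changes of low genes, for genes averaging 0.5 FPKM or more, with trend, 2-sided, with Benjamini-Hochberg adjustment over all 13057 genes. It was run on simulated data with the same dispersion in every gene, which says little about segments with few reads. Single values were compared by exact 2-sided permutation over 35 splits. Segments named were the 4 V and 2 J segments with most reads in each chain and segments with at least 10 reads whose libraries do not overlap; exceptions are marked. Sequences come from GENCODE M21 (GRCm38), and coordinates from the table (GRCm39). Both builds are of the mouse reference genome, which is not of the BALB/C strain, and strain differences in these segments were not checked. The gamma V shares, the Trgv7 ratios and the beta J sum were added after seeing the data. Alternatives were other pseudocounts, filters and scalings, limma voom on recovered reads, segment subsets, a replicate block and leaving out each library. One marker gene of the tissue check is not reported here.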

Additional observations from a re-analysis of the deposited data

Results flagged for a closer look

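In 3 of 42 values checked, 1 of the 4 cKO libraries lay far from the other 3. Chance alone flags about 1 in 20 such groups of continuous values, and that rate was not worked out for counts this low. A segment read in only 1 of the 4 cKO libraries has the largest gap possible. Traj3 stood at 1.80 FPKM in cKO 2, on 2 reads, and at 0 in the other cKO libraries. Trbj2-7 stood at 4.395 FPKM in cKO 3, on 3 reads, against 1 read in each of the others. Trdv4 stood at 1.63 FPKM in cKO 1, on 10 reads, against 1 or 2 reads in each of the others. Groups of 3 libraries, and so the Ctrl libraries, were not checked in this way.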

How the results depend on the processing

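No segment passed the threshold in any limma setting run. The number of genes called fell from 4 to 1 with a pseudocount of 0.1, without a filter and at a minimum mean of 1 FPKM, to 2 with voom, which could test 7 segments, and lay between 1 and 7 when single libraries were left out. No sign of a pairing by the replicate numbers of the titles was seen (correlations of deviations 0.115, -0.0872 and -0.129). Pairs of unlike number ran from -0.179 to 0.31, so these correlations cannot exclude a pairing. With the replicate number as a block 0 genes were called (1052 at an unadjusted p under 0.05), and the log2 difference changed sign for Trav15-1-dv6-1 (-0.097), Traj58 (-0.0038), Trbv16 (-0.058), Trbj1-6 (-0.017) and Trdj1 (-0.0013). This block also takes cKO 4, which has no partner, out of the estimate, and leaving out cKO 4 without a block gave the same values for the first 4 of these. For Trdv2-2 it was 0.0082 with a pseudocount of 0.1. The Trgv7 share difference was -15.8 percentage points over the 3 number pairs under this pairing.

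The alpha sum turned from -0.14 to 0.0526 RPM in TPM, 0.183 without its most read segment and 0.118 with dv segments counted as delta, and the gamma sum was 0.208 in J segments alone. The gamma-delta share difference turned to 5.82 points in FPKM not multiplied by length, 9.58 in J segments, 2.97 in constant regions and 1.67 without Trgv7. The number of segments differed by -4.83 without rarefaction and by -5.33 for segments with at least 3 reads. The Trgv4 difference was -0.288 points as a share of all segment reads. The causes were not tested.

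Leaving out each library gave differences of -0.480 to 0.299 RPM for alpha, -2.81 to -0.681 for beta, -7.60 to -1.55 for gamma and -1.01 to -0.148 for delta segments. It gave -6.90 to -1.45 points for the gamma-delta share, -4.94 to 7.80 for the number of segments, -20.3 to -15.0 points for the Trgv7 share, -25.4 to -15.8 for Trgv7 per 100 Trgc1 reads, and -1.28 to -1.03 RPM for beta J. For constant regions it gave -2.31 to 3.10 in alpha, -12.6 to -2.67 in beta, -11.4 to 6.48 in gamma and -7.01 to 2.19 in delta, and -67.4 to 9.02 for the summed receptor complex genes. For the Trgv4 share it gave -0.839 to 1.29 points. Log2 differences ranged from -0.19 to 0.61 for Trav15-2-dv6-2, -0.21 to 0.30 for Trav15-1-dv6-1, -0.15 to 0.82 for Traj58, -0.23 to 0.44 for Trbv16, -0.26 to 0.064 for Trbv3, -0.96 to 0.17 for Trbv13-1, -0.71 to 1.13 for Trbj1-6, -0.18 to 0.65 for Trgv1, -0.72 to 0.11 for Trdv4 and -0.51 to 0.24 for Trdv2-2. Of 22 tested segments followed through the settings, 11 never changed sign, among them Trgv7, Trbv13-2 and Trbj2-7. Between 268 and 784 segment reads per library limit the precision of all single-segment values.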
